A study of Mus musculus with 4 samples.

Results

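The genes described here handle iron and heme inside the macrophage, namely the ferritin subunits Fth1 and Ftl1, the iron exporter Slc40a1, the transferrin receptor Tfrc, the heme-degrading enzyme Hmox1, the divalent metal transporters Slc11a1 and Slc11a2, the ferritin autophagy receptor Ncoa4, and the iron regulatory proteins Ireb2 and Aco1. They were taken by name as a list of 10 genes, while the tables list 15114 genes with an Entrez number in all, and all 10 were found. RNA was sequenced from bone marrow-derived macrophages of C57BL/6 mice in 4 libraries. Marrow cells had grown for 7 days with the macrophage growth factor M-CSF and had then been held for 24 h in interleukin 4 (IL-4) at 20 ng/mL, in every library. The wild-type group (WT, 2 libraries) was Eif2ak3 fl/fl and the knockout group (KO, 2 libraries) LysMcre x Eif2ak3 fl/fl, so the floxed alleles are common to both and Cre is carried by the knockout group alone. Eif2ak3 encodes PERK, the endoplasmic reticulum stress kinase, and LysMcre expresses Cre recombinase from the lysozyme 2 locus, which is active in myeloid cells. The labels do not say whether the libraries of a genotype came from separate animals, so the spread between libraries may be technical. The p-values rest on that spread, moderated by the spread of other genes of similar level.

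Macrophages recover iron from engulfed red cells. Heme oxygenase 1, the product of Hmox1, opens the heme ring and frees its iron, which is stored inside shells of ferritin heavy and light chains or leaves the cell through ferroportin, the product of Slc40a1. The transferrin receptor brings iron in, and NCOA4 delivers ferritin to the lysosome when iron is needed. The iron regulatory proteins IRP1 (Aco1) and IRP2 (Ireb2) bind a stem-loop, the iron-responsive element, in the messenger RNA of several of these genes. When iron is scarce, binding in the 5′ untranslated region blocks translation of ferritin and ferroportin, while binding in the 3′ untranslated region stabilises the transferrin receptor message, so much of this control does not appear in RNA levels.

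The iron-responsive elements of the canonical form are shown because IRP1 and IRP2 bind such sites. The untranslated regions of protein-coding transcripts of the GENCODE M21 annotation (GRCm38, also called mm10) were searched on the transcript strand for the canonical element, a bulged C followed by a stem of 5 pairs, G with U allowed, around a loop of 6 bases that starts with CAGTG and does not end in G. In the 5′ untranslated region 3 of 10 genes held it, Fth1, Ftl1 and Slc40a1, against 0.112% of 20580 genes scanned. In the 3′ untranslated region 1 of 10 held it, Tfrc, with 4 sites, against 0.477% of 20962 genes. Several of the 10 genes are known carriers of the element and were taken by name. These counts therefore show where the sites lie and are not a test. An isoform of Slc11a2 is known to carry an element in its 3′ untranslated region that departs from this form, and the search did not match it, so the pattern does not list every such site. Each is printed 5′ to 3′ as DNA letters, with the loop in capitals.
Fth1, chr19:9982733-9982760, plus strand: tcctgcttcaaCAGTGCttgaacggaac
Ftl1, chr7:45459779-45459806, minus strand: tcttgcttcaaCAGTGTttgaacggaac
Slc40a1, chr1:45925465-45925492, minus strand: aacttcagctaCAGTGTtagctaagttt
Tfrc site 1, chr16:32631220-32631247, plus strand: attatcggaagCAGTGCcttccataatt
Tfrc site 2, chr16:32631599-32631626, plus strand: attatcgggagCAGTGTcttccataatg
Tfrc site 3, chr16:32631664-32631691, plus strand: tatatcggagaCAGTGAtctccatatgt
Tfrc site 4, chr16:32631711-32631738, plus strand: attatcgggaaCAGTGTttcccataatt

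Values are FPKM, fragments per kilobase of feature scaled to the mapped fragments of the library, as deposited, with no counts, so depth is unknown. Between 41.1% and 58.9% of all FPKM fell on Entrez-numbered genes, the lowest share being that of knockout replicate 2, which also listed 29618 features found in no other library. Levels of Eif2ak3 were 10.9 and 8.88 FPKM (WT) against 6.55 and 4.88 FPKM (KO), a description of the genotypes that does not show which exons were lost. All 10 macrophage markers checked were listed, and their levels summed to 2078 and 2545 FPKM (WT) against 1911 and 1614 FPKM (KO). One of them, Lyz2, the locus that carries Cre, stood at 627 and 699 FPKM (WT) against 253 and 201 FPKM (KO) and is part of these sums. Of the 10 markers, 4 lay below and 6 above the median change of the 9501 genes compared below. Lower in knockout without overlap were 2 of them as deposited, against 35.6% of those genes. After median-ratio scaling it was 1, against 15.3%. Of 12 erythroid markers 5 were listed, with a summed level of 0.03 to 0.14 FPKM, and the globin genes Hba-a1, Hba-a2 and Hbb-bs were at 0. Summed levels were 3.29 to 3.99 FPKM for neutrophil markers and at most 2.32 FPKM for each of the T cell, B cell, dendritic, stromal and mast cell lists. Fewer cells of a type and less RNA per cell cannot be told apart in such bulk samples.

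The 9501 genes whose mean reached 1 FPKM were compared, knockout minus wild type, on log2(FPKM + 1) with limma, a moderated linear model. All tested genes had a median change of -0.14, so changes are also given relative to that median gene. Unless scaling is named, p-values and intervals belong to the change as deposited, before that median is subtracted. Of all tested genes 0.0211% passed a limma adjusted p of 0.05, and 0 of the 10 iron and heme genes did, whether as deposited or after median-ratio scaling. The lowest adjusted p among the 10 was 0.776. At an unadjusted limma p under 0.05 there were 2, Slc40a1 and Hmox1, both lower. By that measure 3.52% of all tested genes were lower and 0.705% higher. Slc40a1 reached a mean of 1 FPKM only through its wild-type level, so its call is not independent of its direction. After median-ratio scaling Slc40a1 and Hmox1 were again the 2 lower genes (limma unadjusted p = 0.0268 and 0.0269), where 1.4% of all tested genes were lower and 1.65% higher. An exact permutation test of 2 against 2 libraries cannot give a two-sided p under 0.333.

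**Figure D1:**
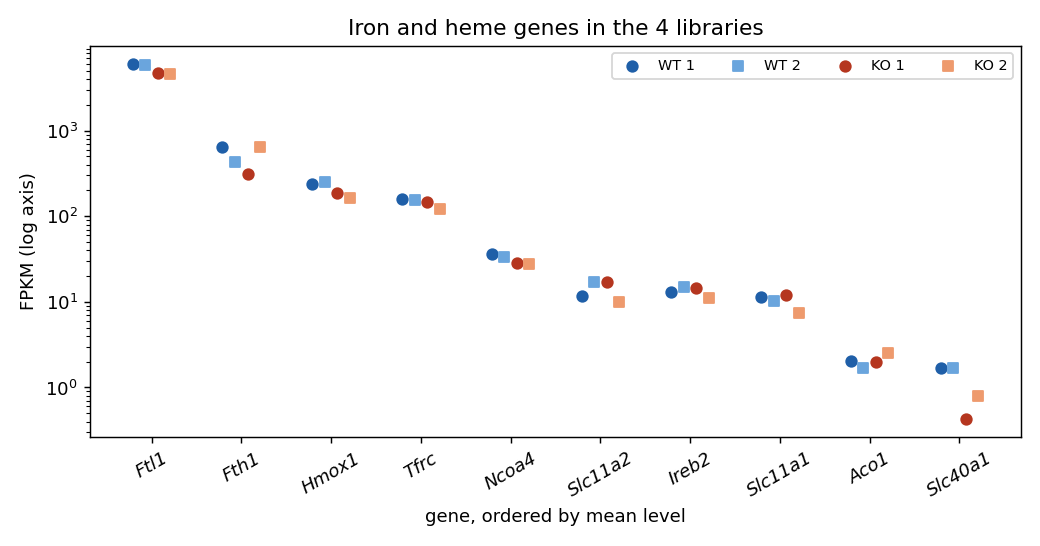
Level of each iron and heme gene in FPKM (log axis) in the 4 libraries, 1 point per library, circles for replicate 1 and squares for replicate 2, blue for wild type and red or orange for knockout. Ftl1 lies highest, between 4553 and 6056 FPKM, and Slc40a1 lowest, with both knockout libraries under 1 FPKM.

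The 10 genes spanned more than 3 orders of magnitude in FPKM, a level per length. Ftl1, with a mean of 5293 FPKM, ranked 1 of the 9501 tested genes and held 2.24% and 2.08% of Entrez-assigned FPKM in wild type and 1.75% and 2.00% in knockout. Fth1 followed at 508 FPKM (rank 51), then Hmox1 at 209.7 FPKM (rank 181), Tfrc at 146 FPKM (rank 290) and Ncoa4 at 31.6 FPKM (rank 1506). Slc11a2, Ireb2 and Slc11a1 came next with means of 13.9, 13.4 and 10.2 FPKM and overlapping libraries, so their order is not larger than their spread. Aco1 at 2.06 FPKM and Slc40a1 at 1.15 FPKM were lowest (ranks 8535 and 9342). Except among Slc11a2, Ireb2 and Slc11a1, and between Aco1 and Slc40a1, which met at 1.71 FPKM, neighbours in this order did not overlap in any library.

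Among the storage genes, the ferritin light chain was lower in both knockout libraries, while the heavy chain varied more within a genotype than between genotypes. Ftl1 (Entrez 14325, chromosome 7, 45457944 to 45459886), the subunit that favours core formation, stood at 6056 and 5878 FPKM (WT) against 4686 and 4553 FPKM (KO). The groups did not overlap, and the knockout mean was 22.6% lower. Its change in log2(FPKM + 1) was -0.37 (SE 0.32), which is -0.23 after subtracting that of the median gene (95% interval as deposited -1.14 to 0.40, limma unadjusted p = 0.293). The SE and p of Ftl1 depended on how the spread of other genes was used. Without a trend of that spread with level, the SE was 0.14 (limma unadjusted p = 0.0411, adjusted p = 0.780). Among genes averaging at least 5 FPKM the SE was 0.19 (limma unadjusted p = 0.0942). When all 15114 genes were kept the SE was 1.71 (limma unadjusted p = 0.839).

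Fth1 (Entrez 14319, chromosome 19, 9980600 to 9985111), the subunit that oxidises ferrous iron, stood at 649 and 435 FPKM (WT) against 308 and 642 FPKM (KO). Wild-type replicate 1 and knockout replicate 2 were high and the other libraries low, so the genotypes overlapped. The change in log2(FPKM + 1) was -0.26 (SE 0.39, 95% interval -1.19 to 0.67, limma unadjusted p = 0.529). The value relative to the median gene was -0.12, but 0.17 without wild-type replicate 1 and 0.49 without knockout replicate 1. The knockout libraries differed 2.09-fold in Fth1, against a median of 1.19-fold over 918 genes that averaged at least 50 FPKM and were listed in every library, and 3 of these genes (Ccl5, Rnase2a and Cd74, named after their values were seen) differed more. Within wild type the difference was 1.49-fold, and 94 of the 918 genes differed more. The FPKM ratio of Ftl1 to Fth1 was 9.33 and 13.5 in wild type and 15.2 and 7.09 in knockout. Among genes named as ferritin copies, the annotation holds 2 processed pseudogenes of Fth1, and for Ftl1 it holds 2 processed pseudogenes and a retrogene. Copies under other names were not searched for, so there may be more. How the authors' counting treated reads shared with such copies is not given in the sources used here, so the levels of both ferritin genes are uncertain in that respect.

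The 5 genes averaging at least 50 FPKM whose profile over the 4 libraries lay nearest to that of Fth1 were H2bc6, H3c6, H3c3, H2ac24 and H2ac4, all of them histone genes. The likeness is the root mean square distance between profiles on the log2 scale after median-ratio scaling, each centred on its own mean, and these genes stood 0.19 to 0.28 from Fth1. H2bc6 stood at 102.9 and 64.4 FPKM (WT) against 52.5 and 76.6 FPKM (KO), so it was highest in wild-type replicate 1 and lowest in knockout replicate 1. Fth1 was also lowest in knockout replicate 1, but after median-ratio scaling, the scale of this likeness, it was highest in knockout replicate 2. There Fth1 stood at 0.56 above its mean and these histone genes at 0.11 to 0.25. Histone genes have near-identical copies, so their own values are uncertain, and 4 libraries describe these samples alone. The nearest other iron or heme gene to Fth1, Aco1, stood farther away, at 0.39.

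**Figure D2:**
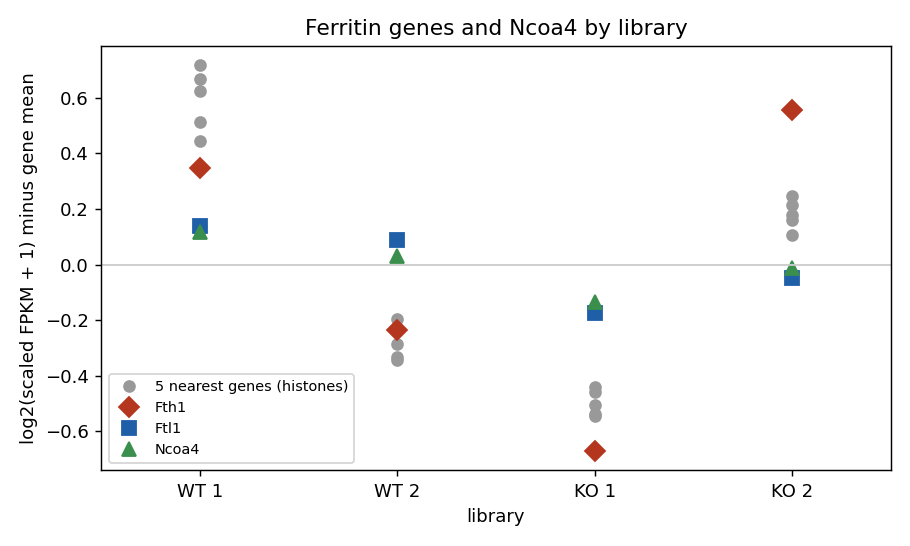
Level of Fth1, Ftl1, Ncoa4 and the 5 histone genes nearest to Fth1 in each library, as log2(FPKM + 1) after median-ratio scaling minus the gene's mean over the 4 libraries, 1 point per gene and library. Fth1 runs from -0.67 in knockout replicate 1 to 0.56 in knockout replicate 2, while Ftl1 and Ncoa4 stay close to each other in all 4 libraries.

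Ncoa4 (Entrez 27057, chromosome 14, 32159879 to 32179855), which carries ferritin to lysosomal breakdown, stood at 35.8 and 33.9 FPKM (WT) against 28.8 and 28.0 FPKM (KO). The groups did not overlap, with knockout the lower. The change in log2(FPKM + 1) was -0.29 (SE 0.14), which is -0.15 after subtracting that of the median gene (95% interval as deposited -0.63 to 0.05, limma unadjusted p = 0.0862), and -0.09 without knockout replicate 1. When each library was scaled to the same sum over Entrez-numbered genes, the groups overlapped. Of all pairs among the 10 genes, Ncoa4 and Ftl1 had the nearest profiles, with a distance of 0.04 on the log2 scale.

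For export, the ferroportin gene had the largest change among the 10 genes, at a low level. Slc40a1 (Entrez 53945, chromosome 1, 45908070 to 45926532), the only known cellular iron exporter in mammals, stood at 1.68 and 1.71 FPKM (WT) against 0.43 and 0.79 FPKM (KO). The groups did not overlap, with knockout the lower, and the wild-type mean was 2.78 times the knockout mean. On the log2(FPKM + 1) scale, which understates changes of low genes, the change was -0.75 (SE 0.22), or -0.61 when set against the median gene (95% interval as deposited -1.29 to -0.21). The limma unadjusted p was 0.0134 and the adjusted p 0.776, and the unadjusted p was 0.0524, 0.0562 and 0.0522 without wild-type replicate 1, wild-type replicate 2 and knockout replicate 1. With a pseudocount of 0.1 the relative change was -1.23, and without knockout replicate 1 it was -0.38. Slc40a1 passed the filter on low values only through its wild-type level, so its place among the tested genes is not independent of its direction. The ferroxidases Heph and Cp, which assist export, and the ferroportin ligand hepcidin (Hamp) were each listed at 0.12 FPKM or less in every library.

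**Figure D3:**
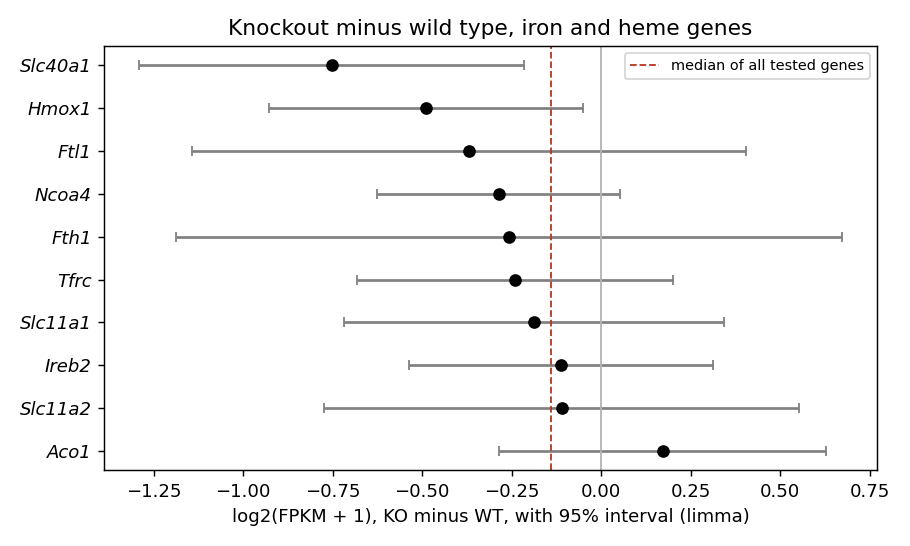
Knockout minus wild type for each iron and heme gene on the log2(FPKM + 1) scale as deposited, with points for the estimate, bars for the 95% limma interval (2 libraries per genotype) and a dashed line at the median of all tested genes (-0.14). The intervals of Slc40a1 and Hmox1 lie below 0, and those of the other 8 genes include 0.

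In heme breakdown, Hmox1 and both biliverdin reductase genes stood lower in both knockout libraries, without passing the adjusted test, while Hmox2 overlapped between the genotypes. Hmox1 (Entrez 15368, chromosome 8, 75093618 to 75100593), the inducible heme oxygenase, stood at 241 and 249 FPKM (WT) against 185 and 164 FPKM (KO). The groups were separate and the knockout mean was 28.8% lower. After median-ratio scaling the levels were 229 and 235 in wild type and 183 and 182 in knockout. The change in log2(FPKM + 1) was -0.49 (SE 0.18), which is -0.35 after subtracting that of the median gene (95% interval as deposited -0.93 to -0.05). Its limma unadjusted p was 0.0336, and 0.131, 0.170 and 0.0689 without wild-type replicate 1, wild-type replicate 2 and knockout replicate 2. The relative change itself stayed between -0.43 and -0.33 in the 12 alternatives run.

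The biliverdin reductases act after heme oxygenase. Blvrb, a biliverdin reductase, stood at 77.6 and 70.8 FPKM (WT) against 50.5 and 51.6 FPKM (KO). Its log2 change was -0.53 as deposited (limma unadjusted p = 0.0120) and -0.39 relative to the median gene. Blvra, the main biliverdin reductase of the adult, stood at 66.7 and 56.5 FPKM (WT) against 49.2 and 47.3 FPKM (KO). Its log2 change was -0.34 as deposited (limma unadjusted p = 0.0763) and -0.20 relative to the median gene. Neither gene overlapped between genotypes. Slc48a1, a transporter that moves heme out of the phagolysosome, stood at 72.9 and 81.9 FPKM (WT) against 61.0 and 62.7 FPKM (KO), and its groups overlapped after median-ratio scaling. Pgrmc1, a heme-binding membrane protein gene, had a log2 change of -0.39 as deposited (limma unadjusted p = 0.0446) and -0.25 relative to the median gene. Hmox2, the constitutive heme oxygenase, stood at 55.4 and 63.3 FPKM (WT) against 62.2 and 44.8 FPKM (KO), with overlapping groups. The ratio of Hmox1 to Hmox2 was 4.35 and 3.93 in wild type and 2.98 and 3.65 in knockout. Of the 9 other heme breakdown and transport genes, 7 lay below the median gene and 2 were lower at an unadjusted limma p under 0.05, with a median of -0.12 relative to all tested genes, of which 3.52% were lower by that p. As deposited 6 of the 9 were separate and lower, against 35.6% of all tested genes, and 4 were after median-ratio scaling, against 15.3%. None passed an adjusted p of 0.05.

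**Figure D4:**
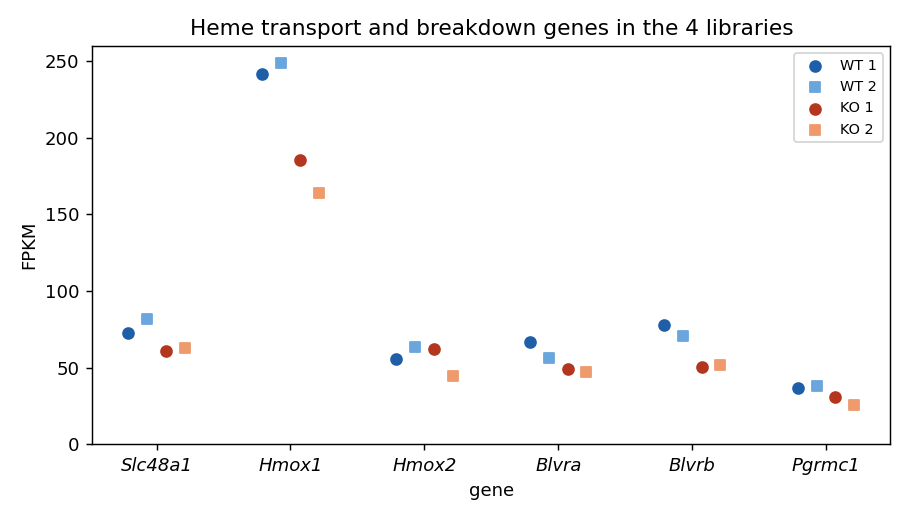
FPKM (linear axis from 0) of heme transport and breakdown genes, 1 point per library, circles for replicate 1 and squares for replicate 2, blue for wild type and red or orange for knockout. Both knockout points lie below both wild-type points for Slc48a1, Hmox1, Blvra, Blvrb and Pgrmc1, and not for Hmox2. Of all tested genes 35.6% were lower without overlap. Of the same list, Flvcr1, Abcb6, Abcg2 and Pgrmc2 are not drawn. Flvcr1 and Abcb6 were also lower without overlap, while Abcg2 and Pgrmc2 overlapped.

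On the uptake side, Tfrc, Slc11a2 and Slc11a1 did not pass an unadjusted limma p of 0.05, and 1 of 6 other tested genes, Lrp1, did, where 3.52% of all tested genes were lower by that p. Tfrc (Entrez 22042, chromosome 16, 32608896 to 32632794), the receptor for iron-loaded transferrin, stood at 161 and 155 FPKM (WT) against 147 and 121 FPKM (KO). The groups did not overlap, though knockout replicate 1 lay close to wild-type replicate 2, and the groups overlapped when each library was scaled to the same Entrez sum. The change in log2(FPKM + 1) was -0.24 (SE 0.18), which is -0.10 after subtracting that of the median gene (95% interval as deposited -0.68 to 0.20, limma unadjusted p = 0.236), and -0.04 without knockout replicate 2. The ratio of Tfrc to Ftl1 was 0.0266 and 0.0263 in wild type and 0.0314 and 0.0265 in knockout.

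Slc11a2 (Entrez 18174, chromosome 15, 100387898 to 100424209), the transporter DMT1 that moves ferrous iron out of endosomes, stood at 11.8 and 16.97 FPKM (WT) against 17.1 and 9.88 FPKM (KO). Slc11a1 (Entrez 18173, chromosome 1, 74375014 to 74386057), the phagosomal transporter NRAMP1, for which C57BL/6 mice carry a natural loss-of-function allele, stood at 11.5 and 10.2 FPKM (WT) against 11.9 and 7.34 FPKM (KO). Both genes overlapped between genotypes, and for both the knockout libraries were the extremes, replicate 1 the highest and replicate 2 the lowest. Their changes were -0.11 and -0.19 as deposited (95% intervals -0.77 to 0.55 and -0.72 to 0.34). Relative to the median gene they were 0.030 and -0.048. Steap3, the endosomal ferrireductase, stood at 16.6 and 17 FPKM (WT) against 18.4 and 15.4 FPKM (KO). Trf, transferrin itself, stood at 25.1 and 45.2 FPKM (WT) against 19.5 and 31.7 FPKM (KO). The zinc and iron transporter gene Slc39a14 was listed in wild-type replicate 2 alone, at 1.19 FPKM. Of 18 other uptake and endosome genes 6 were tested, 3 below and 3 above the median gene. Lrp1, the receptor for hemopexin-bound heme, stood at 131 and 109 FPKM (WT) against 94.5 and 81.0 FPKM (KO). Its change was -0.45 as deposited (limma unadjusted p = 0.0492, and 0.0692 after median-ratio scaling) and -0.31 relative to the median gene.

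The iron regulatory proteins that read the sites printed above did not separate the genotypes as deposited. Ireb2 (Entrez 64602, chromosome 9, 54862658 to 54912534) stood at 12.9 and 14.9 FPKM (WT) against 14.7 and 11.02 FPKM (KO). Its change was -0.11 as deposited (95% interval -0.54 to 0.31) and 0.028 relative to the median gene. Aco1 (Entrez 11428, chromosome 4, 40143265 to 40199009), whose product is cytosolic aconitase when it holds an iron-sulfur cluster, stood at 2.03 and 1.71 FPKM (WT) against 1.97 and 2.51 FPKM (KO). Its change was 0.17 as deposited and 0.31 relative to the median gene (95% interval as deposited -0.28 to 0.63, limma unadjusted p = 0.399), with the knockout libraries above the wild-type libraries after median-ratio scaling but neither as deposited nor with equal Entrez sums. Ireb2 exceeded Aco1 by 6.36-fold and 8.68-fold in wild type and by 7.47-fold and 4.39-fold in knockout. Fbxl5, the iron-sensing ligase subunit that degrades IRP2, stood at 16.1 and 15.8 FPKM (WT) against 16.7 and 16.3 FPKM (KO). It was higher without overlap, as were 4.14% of all tested genes. Its change was 0.05 as deposited (limma unadjusted p = 0.744) and 0.19 relative to the median gene.

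Set side by side, the 4 messages with a canonical element had these changes relative to the median gene. They were -0.12 (SE 0.39) for Fth1, -0.23 (SE 0.32) for Ftl1, -0.61 (SE 0.22) for Slc40a1 and -0.10 (SE 0.18) for Tfrc. All 4 were negative, as were 50% of all tested genes by the definition of the median, and Fth1 turned with the libraries left out. Slc11a2, with its known element of another form, stood at 0.030. Over the whole list the median was -0.11 relative to the median gene, below which 7 of 10 genes lay. As deposited, 5 of 10 genes were lower in knockout without overlap, Ftl1, Slc40a1, Tfrc, Hmox1 and Ncoa4, as were 35.6% of all tested genes. Without overlap 0 of 10 were higher, as were 4.14% of all tested genes. Among these 5, Slc40a1 passed the filter on low values only through its wild-type level. After median-ratio scaling the same 5 were separate, where 15.3% of all tested genes were, and Aco1 lay above, where 14% were. With libraries scaled to the same Entrez sum the count was 3, Ftl1, Slc40a1 and Hmox1, where 12.3% of all tested genes were separate and lower. At a minimum mean of 5 FPKM it was 4 of 8 genes, against 39.4% of those tested. It was 8 without knockout replicate 1, against 69.7% of all tested genes. It was 6 without wild-type replicate 1, wild-type replicate 2 or knockout replicate 2, against 54.6%, 53.9% and 44% of all tested genes. Knockout replicate 2 was the lowest library for 7 of the 10 genes as deposited and for 5 after median-ratio scaling. It also had the lowest median-ratio factor, 0.899, against 1.01 to 1.06 in the other libraries. The share of all tested genes that were lowest in it was not counted. The part of the unnamed features of knockout replicate 2 in these values was not tested.

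In the rest of iron metabolism, the lists of iron control, heme synthesis and iron-sulfur cluster genes held 2 genes that were lower at an unadjusted limma p under 0.05, 0 that were higher and 0 past an adjusted one. Of all tested genes 3.52% were lower by the unadjusted p, and after median-ratio scaling 0 genes of these lists were, against 1.4% of all tested genes. Of 9 tested iron chaperone, storage and export control genes, 4 lay below and 5 above the median gene. The cytosolic iron chaperone gene Pcbp1 stood at 64.5 and 57.0 FPKM (WT) against 51.2 and 49.9 FPKM (KO), and Pcbp2 stood at 18.2 and 37.1 FPKM (WT) against 25.2 and 13.7 FPKM (KO). Herc2, a ubiquitin ligase that targets NCOA4, and Skp1, a partner of FBXL5, had changes of -0.49 and -0.34 as deposited (limma unadjusted p = 0.101 and 0.0804). Relative to the median gene these were -0.35 and -0.20. Of 12 heme synthesis genes, 10 lay below the median gene, and the list median was -0.05 relative to it. Alas1, the rate-limiting enzyme outside erythroid cells, stood at 49.7 and 56.8 FPKM (WT) against 51.0 and 41.8 FPKM (KO). Fech, which inserts iron into the porphyrin ring, stood at 12.01 and 12.3 FPKM (WT) against 11.3 and 9.09 FPKM (KO). Slc25a38, the mitochondrial glycine importer gene, had a change of -0.48 as deposited (limma unadjusted p = 0.0415, and 0.114 after median-ratio scaling). Its relative change was -0.34. Of 29 iron-sulfur cluster genes, 14 lay below and 15 above the median gene. Ndor1, of the cytosolic assembly pathway, and Cisd3, a mitochondrial iron-sulfur protein gene, had changes of -0.39 and -0.33 as deposited (limma unadjusted p = 0.0434 and 0.0762). Relative to the median gene these were -0.25 and -0.19. After median-ratio scaling the limma unadjusted p was 0.115 and 0.156.

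Among transcription factors known to control these genes, NRF2 (Nfe2l2), which activates Hmox1, Blvrb and the ferritin genes, stood at 56.8 and 55.4 FPKM (WT) against 45.7 and 42.6 FPKM (KO). Its groups were separate with knockout the lower, as were those of 35.6% of all tested genes. The change was -0.34 as deposited (limma unadjusted p = 0.0590) and -0.20 relative to the median gene. After median-ratio scaling the limma unadjusted p was 0.0927. The related factor gene Nfe2l1 had -0.35 as deposited (limma unadjusted p = 0.0580, and 0.0789 after median-ratio scaling) and -0.21 relative to the median gene. Bach1, the heme-sensing repressor of Hmox1, stood at 21.9 and 23.4 FPKM (WT) against 19.6 and 20.5 FPKM (KO), a relative change of -0.03. Keap1, the repressor of NRF2, stood at 9.65 and 12.4 FPKM (WT) against 10.2 and 8.71 FPKM (KO). Spic, the factor of red pulp macrophages of the spleen, stayed at 0.10 to 0.29 FPKM and was not tested. Nr1h3, the liver X receptor alpha gene, named after its values were seen, stood at 1.64 and 1.78 FPKM (WT) against 2.38 and 2.41 FPKM (KO), with a change of 0.33 as deposited (limma unadjusted p = 0.108) and 0.47 relative to the median gene. After median-ratio scaling its change was 0.42 (limma unadjusted p = 0.0436, not past the adjusted test). Of 11 tested regulators 8 lay below the median gene, and 0 passed an adjusted limma p of 0.05.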

How the data were processed

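Ribosomal RNA had been removed and stranded cDNA made with random primers for the 4 libraries, per the labels' protocols. The deposited values are FPKM with 2 decimals, computed by the authors, per the file headers. HISAT, StringTie, Bowtie2, RSEM and mm10 are named in the submitters' processing notes, and their versions, the annotation and the strand setting are not given in the sources used here. A feature missing from a table was taken as 0. The smallest listed value is 0.01 FPKM. Of 15114 Entrez numbers, 15094 matched a symbol in RefSeq's GRCm38.p6 table, and gene coordinates come from it. The 76534 other features were not used. Genes whose mean reached 1 FPKM were tested on log2(FPKM + 1) with limma 3.58.1 (R 4.3.3), two-sided, trended prior, no block, with Benjamini and Hochberg adjustment over 9501 genes. The fit was run on data simulated from its own variances with normal noise. Such data hold no offset between libraries, so departures of that kind were not covered. Median-ratio factors used genes listed in all 4 libraries. Depth is unknown, so no counting interval is given. Besides the list, fixed partner genes, the 2 genes of smallest p in each related list and the 5 genes nearest to Fth1 were named. Not every such gene is described. The genes and lists were chosen with earlier results of these data known. Alternatives covered scaling, pseudocount, filter, block, prior and each library left out.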

Additional observations from a re-analysis of the deposited data

How the results depend on the processing

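None of the 10 genes passed an adjusted p of 0.05 in any of the 12 alternatives (limma), and 0 to 3 of them had an unadjusted p under 0.05. The count of all genes called was 2, and 2 to 43 with 1 library left out, the 43 without wild-type replicate 2 (39 higher, 4 lower). It was 14 with the replicate number as a block, and 2 with the block after median-ratio scaling. Deviations of same-numbered libraries had a correlation of 0.08 across genes, and the labels do not say that a number marks a shared animal or day. The list median of -0.11 was -0.19 with no filter on low values and -0.17 to -0.091 with 1 library left out. The 5 of 10 genes separate and lower (35.6% of all tested genes) became 3 with equal Entrez sums (12.3%) and 6 to 8 with 1 library left out (44% to 69.7%). A lone library was assumed to vary like the others. Changes relative to the median gene that turned sign were those of Fth1 (-0.73 to 0.49), Slc11a1 (-0.29 to 0.18), Slc11a2 (-0.26 to 0.32) and Ireb2 (-0.090 to 0.14) with 1 library left out, and Slc11a2 (-0.051) and Ireb2 (-0.053) with no filter. The causes were not tested. Ftl1, Slc40a1, Tfrc, Hmox1, Ncoa4 and Aco1 kept their direction in each alternative that included them, but Slc40a1 and Aco1 were not tested at a minimum of 5 FPKM. Without counts, nothing can be said of the precision of low values such as Slc40a1.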

Other observations

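Genes of iron-driven lipid peroxidation, most of them protective but Acsl4, Lpcat3 and Alox15 known to promote it, were read from a list of 12, of which 9 were tested, 5 below and 4 above the median gene, with 0 past an adjusted limma p of 0.05. Lower in knockout without overlap were 4 of the 9, Gclc, Gclm, Gpx4 and Vkorc1l1, against 35.6% of all tested genes. Higher without overlap was 1, Gch1, against 4.14%. After median-ratio scaling the counts were again 4 and 1, against 15.3% and 14%. Gclc and Gclm, which make glutamate-cysteine ligase, had changes of -0.41 and -0.57 relative to the median gene. Gpx4, the peroxidase that reduces lipid peroxides, stood at 112 and 131 FPKM (WT) against 98.8 and 91.0 FPKM (KO). Slc7a11, the cystine importer subunit gene, stood at 1.20 and 0.61 FPKM (WT) against 0.76 and 0.42 FPKM (KO) and was not tested. Gpx4, Slc7a11, Vkorc1l1 and Gch1 were named after their values were seen. Epas1, which carries an iron-responsive element in human cells, was listed at 1.59 FPKM in wild-type replicate 1 and 0.40 FPKM in knockout replicate 2 and at 0 in the other libraries.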
